A study of Mus musculus with 8 samples.

Results

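Untreated cells of a 2C::GFP+ reporter, which marks a state like the 2-cell embryo, were compared with untreated wild-type mouse embryonic stem cells (mESC) by RNA-seq, as 2 libraries against 2 of the 8 in the series. The 4 libraries were chosen by their labels and no measured value entered the choice. Both groups are labelled as mouse embryonic stem cells without treatment, of genotype WT in one and 2C::GFP+ in the other, and polyadenylated RNA was sequenced. The other 4 libraries were of treated reporter cells, 2 of 2C::GFP+/SGC (2 µM SGC0946 with LIF) and 2 of 2C::GFP+/SA (2 µM SGC0946 and 2 µM AS8351 with IL6/sIL-6R in place of LIF). They entered the filter on low counts, the scaling and the estimate of spread. A gene without a count in the 4 libraries compared could therefore be among those tested.

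Several limits of the groups as models follow from the labels. The culture notes allow 2 media for embryonic stem cells: N2B27 with 10 ng/ml LIF, 1 µM PD03 and 3 µM CHIR, or KnockOut medium with 20% serum replacement and 10 ng/ml LIF. They do not state which medium either untreated group was grown in, so medium and group cannot be told apart in any value below. The 2 count columns used for 2C::GFP+ carry the name of a serum replacement and were assigned to that group because the other 6 columns match other groups. The sources used here do not state the promoter of the reporter, how it was introduced, whether the cells were sorted for GFP, or whether the replicates were separate cultures. The p-values therefore measure the spread between these libraries, which may be technical. In bulk RNA, more cells of a kind and more RNA per cell cannot be told apart.

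As background, a small share of mouse embryonic stem cells enters at any time a state that resembles the 2-cell embryo, in which the transcription factor DUX switches on genes of zygotic genome activation such as the Zscan4 cluster. Reporters of this state are usually driven by a retroviral repeat that is active at that stage. The 2 media differ in signalling: PD03 blocks MEK, the kinase that activates ERK downstream of FGF, and CHIR blocks GSK3, which stabilises beta-catenin and so switches on Wnt targets through TCF/LEF factors.

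The 4 libraries compared held 16474223 to 145810034 counts, and in every group of the series the second replicate had 7.46 to 9.62 times fewer counts than the first. Values are given in CPM, counts scaled to a common library size with TMM factors, for replicates 1 and 2 in that order. A gene with 3 counts stood at 0.0219 to 0.178 CPM in the 4 libraries compared. The label of the reporter cells was checked on Zscan4c, which had 0.692 and 1.49 CPM in mESC and 156 and 196 CPM in 2C::GFP+, and on Duxf3, the gene of DUX, which had 0.0437 and 0 CPM in mESC and 4.71 and 4.99 CPM in 2C::GFP+. Both groups held the defining markers of embryonic stem cells: Pou5f1 had 687 and 626 CPM in mESC and 750.04 and 623 CPM in 2C::GFP+, and Nanog had 682 and 738 CPM in mESC and 767 and 604 CPM in 2C::GFP+. These pluripotency factors overlapped between the groups, and the 2 genes of the 2-cell-like state did not.

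The difference between the groups was broad. Of 20608 tested genes, 5016 (24.3%) passed edgeR's quasi-likelihood test at an adjusted p (Benjamini-Hochberg over all tested genes) below 0.05, 3136 higher in 2C::GFP+ (15.2%) and 1880 lower (9.12%). The shape of the 2 sets differed. Genes called higher had a median log2 fold change of 2.22 and a median level of 5.96 CPM in 2C::GFP+, and 1603 of them lay below 1 CPM in mESC. Genes called lower had a median of -1.003 and a median level of 36.7 CPM in mESC, and 301 lay below 1 CPM in 2C::GFP+. The median over all tested genes was 0.04.

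Rises of 16-fold or more were called for 897 genes and falls of that size for 103. With mESC replicate 1 left out these rises numbered 488. At least 2-fold, 11.6% of tested genes were called higher and 4.59% lower. For a gene without a count in a group the size of the fitted fold depends on the prior count. By mean expression, the share called higher was largest (22.9%) among genes of 1 to 3 CPM and the share called lower (16.2%) among genes of 30 to 100 CPM. Genes called higher took 7.85% and 7.76% of the counts in mESC and 14.03% and 14.6% in 2C::GFP+, and genes called lower took 13.5% and 14.3% against 7.76% and 7.93%. Among the 5016 genes, 4968 had groups that did not overlap, and 48 overlapped. Over all tested genes, 33.9% had both 2C::GFP+ libraries above both of mESC and 29% had both below. Leaving out a library of either group lowered the number called, to 2872 and 3463 when mESC replicate 1 or 2 was dropped and to 3177 and 3268 when that was done for replicate 1 or 2 of 2C::GFP+.

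**Figure D1:**
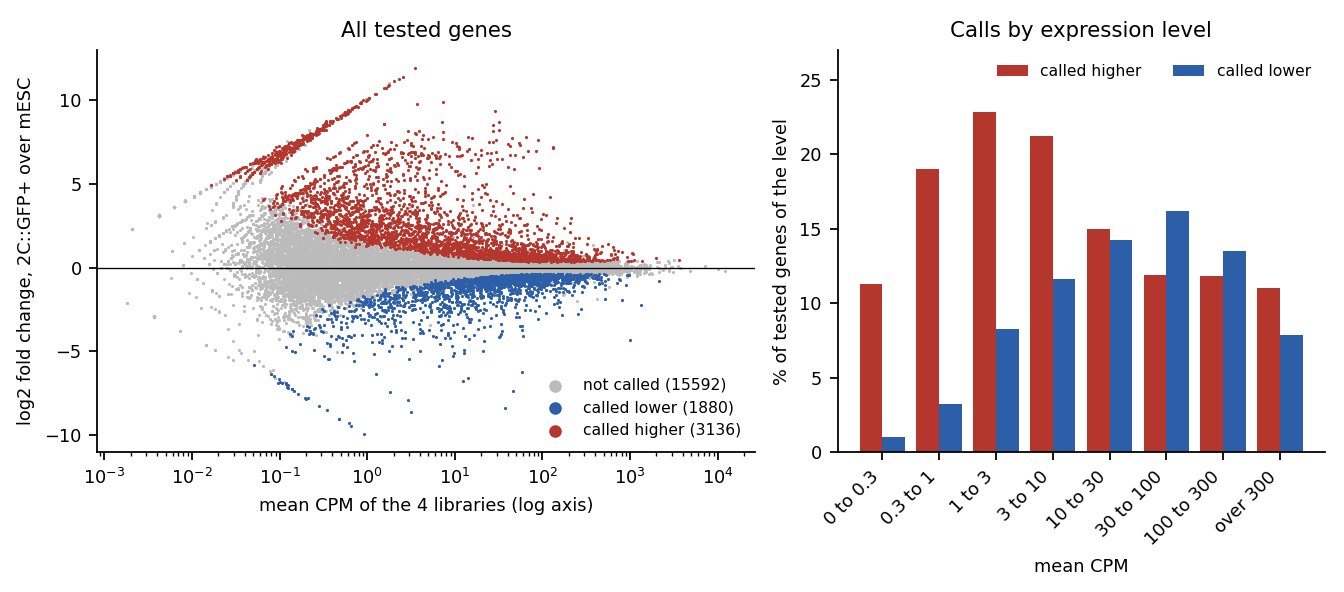
The left panel plots each tested gene by its mean CPM over the 4 libraries (log axis) and its log2 fold change, with genes called higher in 2C::GFP+ in red, called lower in blue and not called in grey. The right panel gives the percentage of tested genes called at each expression level: calls in the higher direction peak at 1 to 3 CPM (22.9%) and calls in the lower direction at 30 to 100 CPM (16.2%).

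The largest rises outside the 2-cell-like list were in genes that were nearly silent in mESC. Myo1f, an unconventional myosin known from leukocytes, had 0.102 and 0 CPM in mESC and 64.9 and 50.7 CPM in 2C::GFP+ (log2 fold change 9.35, SE 0.35, adjusted p = 1.2e-09). Stra8, a gene that retinoic acid induces at the entry into meiosis, had 0.138 and 0.205 CPM in mESC and 47.2 and 79.4 CPM in 2C::GFP+ (log2 fold change 8.71, SE 0.50, adjusted p = 1.04e-05). Genes of this set were chosen among those whose groups did not overlap. The long non-coding RNA gene Halr1, which lies beside the Hoxa cluster, had 0.131 and 0.205 CPM in mESC and 57.2 and 51.3 CPM in 2C::GFP+ (log2 fold change 8.55, SE 0.27, adjusted p = 4e-10). The zinc finger gene Wt1, a regulator of kidney and gonad development, had 0.124 and 0.103 CPM in mESC and 28.4 and 27.3 CPM in 2C::GFP+ (log2 fold change 7.84, SE 0.31, adjusted p = 2.27e-09). The highest mESC value among these 4 genes was 0.205 CPM.

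The remaining rises of this set were in 8 genes. Dcc, a receptor for the guidance cue netrin, had 0.117 and 0 CPM in mESC and 11.3 and 8.67 CPM in 2C::GFP+ (log2 fold change 6.65, SE 0.76, adjusted p = 0.00221). Cntfr, a receptor subunit for ciliary neurotrophic factor, had 0.5100 and 0 CPM in mESC and 33.8 and 38.6 CPM in 2C::GFP+, and Pou2f2, a POU factor known from B cells, had 0.262 and 0 CPM in mESC and 11.5 and 31.1 CPM in 2C::GFP+. Their log2 fold changes were 6.52 (SE 0.66, adjusted p = 0.000753) and 6.65 (SE 0.79, adjusted p = 0.00125). The 2C::GFP+ libraries of Pou2f2 lay further apart than those of Cntfr, and in both genes mESC replicate 2 had no count. Ceacam20, a cell adhesion gene, rose by 6.64 (SE 0.47, adjusted p = 5.16e-07). The other 4 were AF067061 and Zscan4-ps1, Zscan4-ps2 and Zscan4-ps3, which the annotation types as protein-coding. These Zscan4-ps genes are Zscan4 copies by symbol, although they were not on the 2-cell-like list. Their counts cannot be separated with certainty from those of other Zscan4 copies. AF067061 lost its call without mESC replicate 2 (adjusted p = 0.0546, against 0.00284; log2 fold change 7.23), and Zscan4-ps3 without 2C::GFP+ replicate 2 (0.0604, against 0.00779; log2 fold change 6.95).

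The 3 largest falls of the same set were in the transcription factor genes Nkx1-2, Sp5 and T. Nkx1-2, a homeobox gene of the caudal epiblast, had 66.4 and 82.4 CPM in mESC and 0.259 and 0.0594 CPM in 2C::GFP+ (log2 fold change -8.38, SE 0.56, adjusted p = 1.18e-05). Sp5, a zinc finger gene that Wnt signalling switches on, had 97.8 and 84.5 CPM in mESC and 0.534 and 0.594 CPM in 2C::GFP+ (log2 fold change -7.37, SE 0.27, adjusted p = 9.24e-10). T, which encodes brachyury, the T-box factor of the primitive streak, had 12.8 and 35.98 CPM in mESC and 0.2503 and 0.119 CPM in 2C::GFP+ (log2 fold change -6.77, SE 0.71, adjusted p = 0.00012). Of these genes T differed most between the mESC libraries.

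The set held 9 more falls. Trpm1, a cation channel of the retina, had 104 and 127 CPM in mESC and 0.985 and 2.73 CPM in 2C::GFP+ (log2 fold change -6.23, SE 0.55, adjusted p = 0.000372). Ccbe1, which promotes the processing of VEGF-C, had 13.9 and 12.3 CPM in mESC and 0.209 and 0.238 CPM in 2C::GFP+ (log2 fold change -5.91, SE 0.44, adjusted p = 7.88e-07). Cyp1a1, a cytochrome P450 induced by the aryl hydrocarbon receptor, had 13.4 and 14.7 CPM in mESC and 0.284 and 0.356 CPM in 2C::GFP+ (log2 fold change -5.52, SE 0.49, adjusted p = 3.32e-06). Nod2, a sensor of bacterial cell walls, fell by 5.26 (SE 0.36, adjusted p = 4.45e-07). The calcium-binding genes Casq2 and Calb2 had log2 fold changes of -5.13 (SE 0.46, adjusted p = 3.36e-06) and -5.09 (SE 0.45, adjusted p = 5.32e-06). Glis3, a Krüppel-like zinc finger gene, and Lhfpl2 fell to 0.793 and 0.832 CPM and 1.36 and 1.19 CPM in 2C::GFP+ (log2 fold change -4.93, SE 0.34, adjusted p = 4.37e-07 for Glis3, and log2 fold change -4.97, SE 0.35, adjusted p = 6.85e-07 for Lhfpl2). Pglyrp1, a peptidoglycan recognition protein gene, was among them (log2 fold change -6.63, SE 0.86, adjusted p = 0.00157) and lost its call without 2C::GFP+ replicate 2 (adjusted p = 0.0738).

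Promoters are shown for the 2 largest rises and falls among the genes that the naming rule chose. Each run covers 250 bases before to 50 bases after the start in RefSeq (GRCm38.p6), 5′ to 3′ on the gene's strand, at chr17:33555457-33555756 (plus strand), chr6:34920698-34920997 (plus strand), chr7:132599588-132599887 (minus strand) and chr2:70474673-70474972 (plus strand). Capitals mark the letters of the TCF/LEF motif searched, CTTTGAT on either strand.
Myo1f: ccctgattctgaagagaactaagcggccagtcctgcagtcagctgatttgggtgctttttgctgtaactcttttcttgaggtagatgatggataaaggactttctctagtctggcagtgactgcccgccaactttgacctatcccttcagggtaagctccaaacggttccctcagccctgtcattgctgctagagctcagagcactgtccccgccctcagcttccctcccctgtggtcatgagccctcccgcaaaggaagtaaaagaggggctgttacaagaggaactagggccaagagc
Stra8: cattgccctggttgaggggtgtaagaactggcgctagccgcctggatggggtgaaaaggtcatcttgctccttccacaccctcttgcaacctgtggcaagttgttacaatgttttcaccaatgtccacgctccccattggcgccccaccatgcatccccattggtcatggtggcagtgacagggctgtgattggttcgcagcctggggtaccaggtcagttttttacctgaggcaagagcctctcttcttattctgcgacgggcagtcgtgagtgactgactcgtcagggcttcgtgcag
Nkx1-2: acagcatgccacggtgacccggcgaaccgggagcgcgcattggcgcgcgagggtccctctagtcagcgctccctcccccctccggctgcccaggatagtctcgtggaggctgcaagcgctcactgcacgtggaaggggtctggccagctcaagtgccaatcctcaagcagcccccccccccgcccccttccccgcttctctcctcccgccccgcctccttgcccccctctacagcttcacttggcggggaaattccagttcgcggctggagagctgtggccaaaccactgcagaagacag
Sp5: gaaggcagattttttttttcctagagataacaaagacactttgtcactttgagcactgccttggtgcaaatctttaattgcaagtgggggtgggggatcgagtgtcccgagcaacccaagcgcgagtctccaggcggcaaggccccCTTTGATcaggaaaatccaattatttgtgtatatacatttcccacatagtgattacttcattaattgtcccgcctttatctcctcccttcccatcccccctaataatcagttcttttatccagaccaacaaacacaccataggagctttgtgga
In these windows the letters occur once, in Sp5, where the match begins 104 bases before the start. GC content was 53%, 55.7%, 67.3% and 45% in the order shown. A match describes the sequence and is not evidence of binding.

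Over all promoters, shares are given as a description with no test. CTTTGAT was present in 41 of 2056 promoters of genes called higher (1.99%), 29 of 1379 of genes called lower (2.10%) and 339 of 13215 of all tested genes with a promoter in the table (2.57%). The ETS core CCGGAAG, on either strand, was present in 8.90% of promoters of genes called higher, 12.9% of genes called lower and 15.6% of all tested. The share was 2.22% among genes called higher by 16-fold or more, 1.69% (1 of 59) among genes called lower by as much and 9.12% over all promoters in the table. The octamer ATGCAAAT was present in 1.70%, 1.16% and 1.48%, and the sterol element TCACNCCAC in 1.31%, 1.52% and 1.14%. The DUX motif had no match in the windows of genes called higher or lower. It matched 2 of 13215 windows of all tested genes (0.0151%) and 11 of 27025 promoters in the table. With matches this rare, the absence says only that its letters, not printed here, are missing from these windows.

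Among abundant genes (at least 200 CPM in the higher group), the largest rise was in Dusp9, a phosphatase that inactivates ERK, with 12.96 and 11.7 CPM in mESC and 221 and 238 CPM in 2C::GFP+ (log2 fold change 4.21, SE 0.15, adjusted p = 9.24e-10). Mreg, a gene of melanosome transport, had 43.6 and 52.6 CPM in mESC and 378 and 378 CPM in 2C::GFP+ (log2 fold change 2.98, SE 0.21, adjusted p = 1.48e-06). Prdx6, a peroxiredoxin, had 40.8 and 37.3 CPM in mESC and 273 and 218 CPM in 2C::GFP+ (log2 fold change 2.65, SE 0.15, adjusted p = 4.75e-08). Erf, an ETS repressor that ERK inactivates, rose by 1.79 (SE 0.15, adjusted p = 1.72e-06) from 129 and 106 CPM. The abundant genes, too, were chosen among those whose groups did not overlap.

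The actin-binding Tmsb4x rose by 2.10 (SE 0.32, adjusted p = 0.0039), but its call ended without 2C::GFP+ replicate 2 (adjusted p = 0.0598). The nuclear receptor gene Nr0b1, known from the pluripotency network, rose by 1.84 (SE 0.37, adjusted p = 0.0163). That call ended without replicate 1 or 2 of 2C::GFP+ (adjusted p = 0.0647 and 0.117), without 2C::GFP+/SGC replicate 2 (0.0822) and without 2C::GFP+/SA replicate 2 (0.0835).

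The largest fall among abundant genes was in Trh, which encodes thyrotropin-releasing hormone, with 1775 and 2025 CPM in mESC and 103 and 84.1 CPM in 2C::GFP+ (log2 fold change -4.34, SE 0.31, adjusted p = 3.82e-05). The stearoyl-CoA desaturases Scd1 and Scd2, which make monounsaturated fatty acids, both fell. Scd1 had 446 and 446 CPM in mESC and 69.1 and 58.3 CPM in 2C::GFP+ (log2 fold change -2.80, SE 0.16, adjusted p = 5.1e-08), and Scd2 had 2150.3 and 2201 CPM in mESC and 478 and 454 CPM in 2C::GFP+ (log2 fold change -2.22, SE 0.16, adjusted p = 4.92e-07). Dnah8, a dynein heavy chain of sperm flagella, fell by 2.86 (SE 0.20, adjusted p = 1.61e-06) and Oat, ornithine aminotransferase, fell by 2.20 (SE 0.29, adjusted p = 0.00139). Adam19, a membrane metalloprotease, had 246 and 228 CPM in mESC and 49.9 and 59.9 CPM in 2C::GFP+ (log2 fold change -2.11, SE 0.26, adjusted p = 0.000535).

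**Figure D2:**
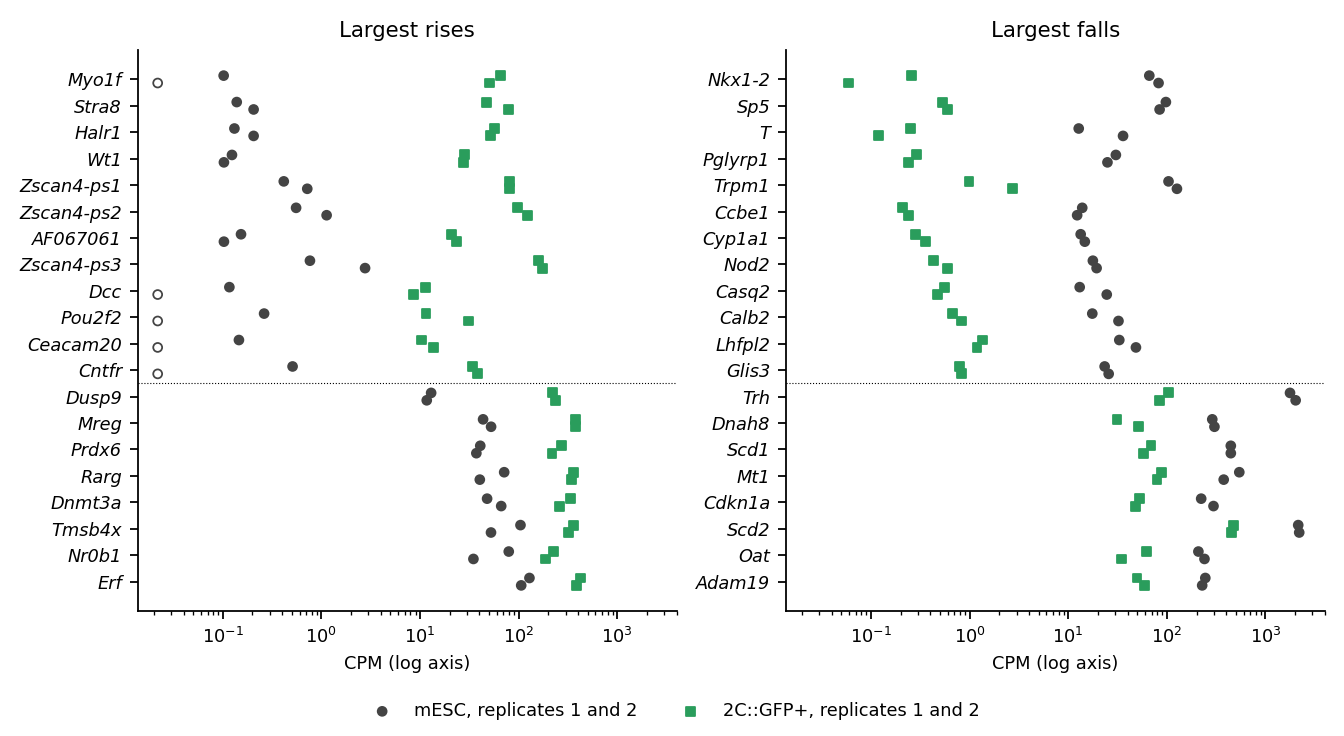
Levels (CPM, log axis) of the genes with the largest rises (left) and falls (right), with 1 point for each library of mESC (circles) and 2C::GFP+ (squares). Genes above the dotted line reached at least 10 CPM and those below it at least 200 CPM in the higher group, and open symbols at the left edge had no count. Dusp9 stands at 12.96 and 11.7 CPM in mESC and at 221 and 238 CPM in 2C::GFP+. Genes were chosen among those whose groups did not overlap.

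Gene lists were read against the shares over all tested genes, 15.2% higher and 9.12% lower. In 26 of the 58 lists more members rose than fell. The lists describe pathways, families and cell type markers, and a count of 2 or fewer in a list moved by at most 2 genes when 1 library was left out, except where given below. The 2-cell-like list had 42 of 56 tested members higher (27 without mESC replicate 1), with a summed level of 718 and 722 CPM in mESC and 2732 and 2994 CPM in 2C::GFP+. Its copies share sequence, so the split of counts between them is uncertain.

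**Figure D3:**
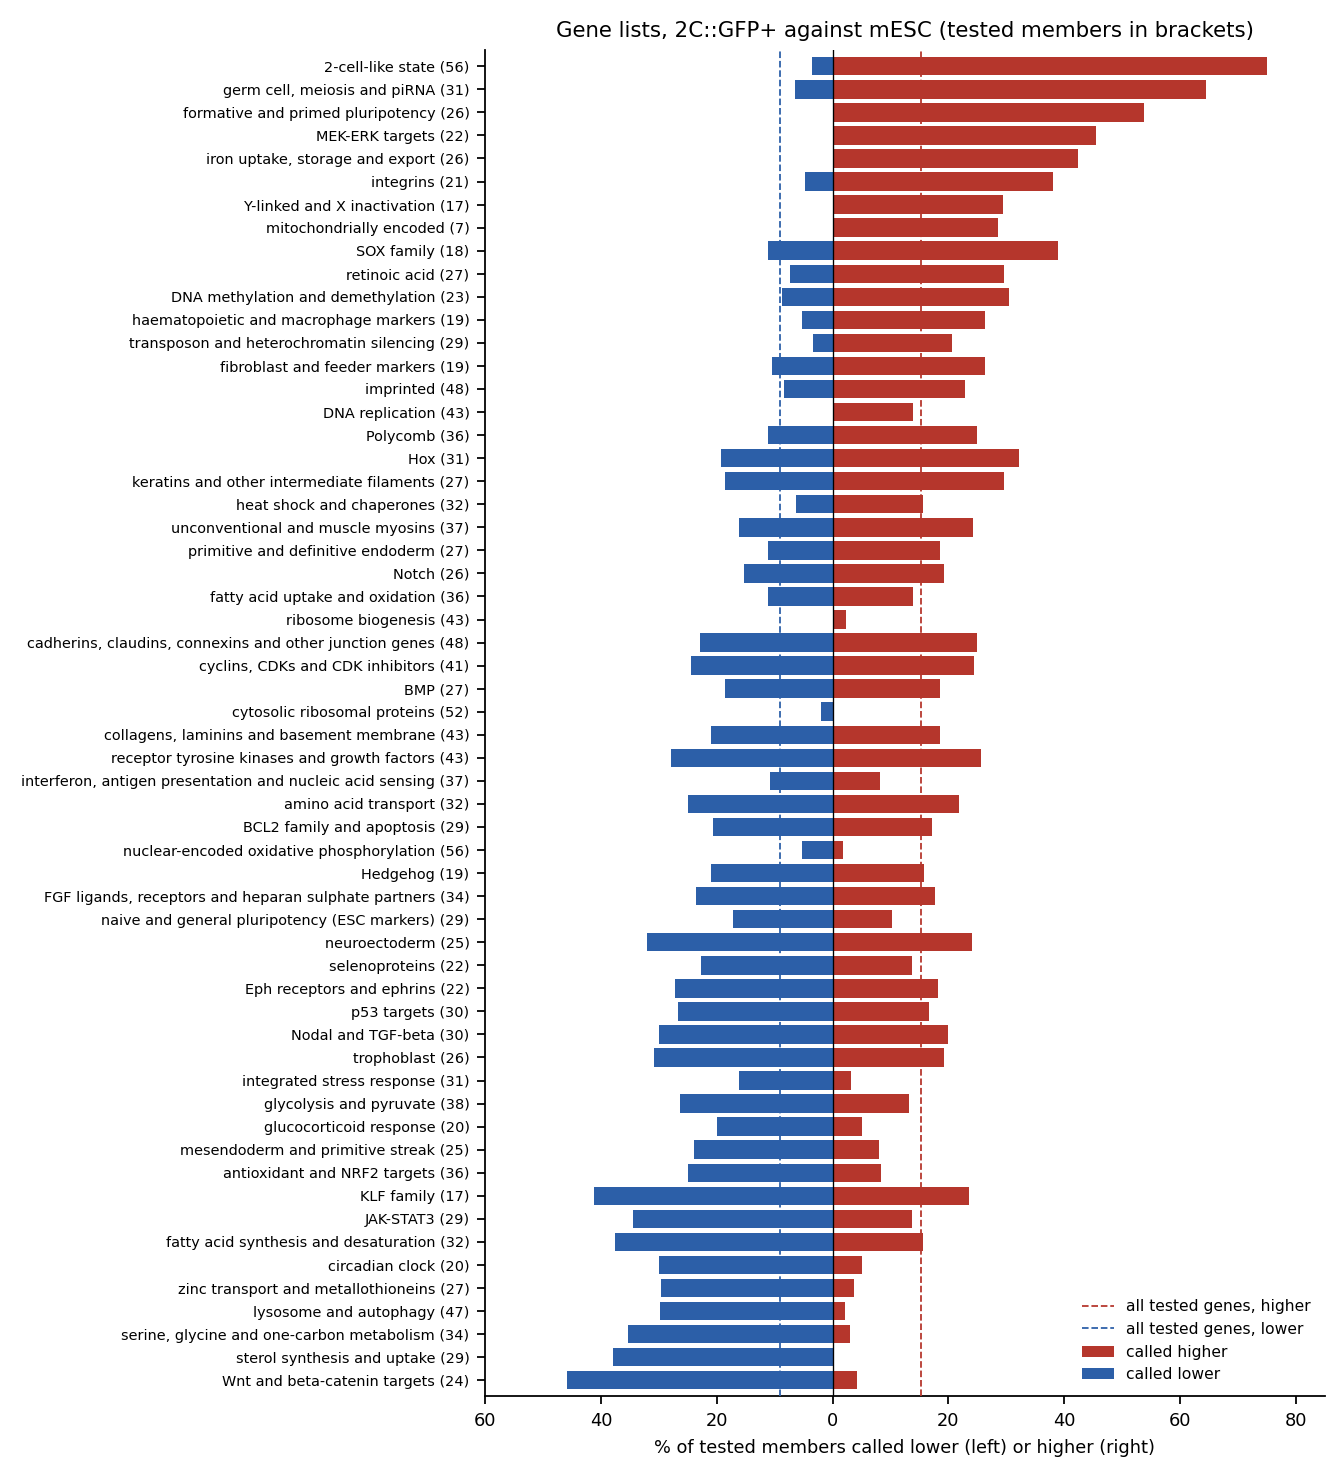
Percentage of tested members called higher (red, to the right) or lower (blue, to the left) in 2C::GFP+ for each of the 58 lists, with the shares over all tested genes as dashed lines (15.2% and 9.12%). Lists are ordered by the difference between the 2 percentages, from the 2-cell-like list at the top to Wnt and beta-catenin targets at the bottom.

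FGFs signal through receptor tyrosine kinases with heparan sulphate as a partner. Of 34 tested genes, 6 rose and 8 fell (median log2 fold change 0.13). Among ligands, Fgf1, an FGF without a signal peptide, had 0.393 and 0.308 CPM in mESC and 19.4 and 22.2 CPM in 2C::GFP+ (log2 fold change 5.77, SE 0.40, adjusted p = 3.21e-05), and Fgf10, a ligand of epithelial budding, had 9.49 and 13.6 CPM in mESC and 1.07 and 1.43 CPM in 2C::GFP+ (log2 fold change -3.24, SE 0.37, adjusted p = 3.03e-05). The receptor gene Fgfr3 had 0.102 and 0.103 CPM in mESC and 1.08 and 3.74 CPM in 2C::GFP+ (log2 fold change 4.47, SE 0.72, adjusted p = 0.000494), and its call ended under limma on log2(TPM + 1) (adjusted p = 0.0843, and 0.249 without a filter), where the fold change was 0.97 on that scale. The membrane partners Sdc4 and Gpc3, which carry heparan sulphate, fell, as did Flrt3, which binds FGF receptors. Sdc4 had 132 and 184 CPM in mESC and 21.3 and 15.1 CPM in 2C::GFP+ (log2 fold change -3.10, SE 0.22, adjusted p = 2.09e-06). The log2 fold changes were -1.42 (SE 0.23, adjusted p = 0.000679) for Gpc3 and -2.51 (SE 0.26, adjusted p = 1.23e-05) for Flrt3. In the list of MEK-ERK targets 10 members were called higher and 0 lower, against 15.2% and 9.12% of all tested genes. Spry4 rose by 2.31 (SE 0.21, adjusted p = 2.52e-05), and Etv5 was at 0.08 (SE 0.15, adjusted p = 0.768). The number of FGF genes called lower was 5 once 2C::GFP+ replicate 2 was left out.

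Genes of Nodal and TGF-beta signalling, which patterns the epiblast through SMAD2 and SMAD3, also went both ways: 6 of 30 rose and 9 fell (median -0.19). Inhbb, which encodes the subunit of activin B, had 1.94 and 0.719 CPM in mESC and 99.4 and 85.7 CPM in 2C::GFP+ (log2 fold change 5.90, SE 0.36, adjusted p = 8.82e-06). Its antagonist Fst, follistatin, had 23.6 and 31.3 CPM in mESC and 1.66 and 0.9504 CPM in 2C::GFP+ (log2 fold change -4.29, SE 0.35, adjusted p = 1.61e-06). The co-receptor Tdgf1 rose by 1.05 (SE 0.16, adjusted p = 0.000294). The signal transducer Smad3 fell from 48.3 and 54.7 to 14.04 and 11.3 CPM (log2 fold change -2.01, SE 0.24, adjusted p = 4.88e-05), and the co-receptor gene Tgfbr3 fell by 3.47 (SE 0.38, adjusted p = 2.14e-05). The number of Nodal and TGF-beta genes called higher was 3 once 2C::GFP+ replicate 2 or else mESC replicate 1 was left out.

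For BMP signalling 5 of 27 genes rose and 5 fell (median 0.16), and the inhibitors of differentiation that it induces did not move together. Id1 had 8.25 and 4.62 CPM in mESC and 41.5 and 36.9 CPM in 2C::GFP+ (log2 fold change 2.56, SE 0.27, adjusted p = 3.13e-05), whereas Id3 had 48.7 and 29.00 CPM in mESC and 16.4 and 14.97 CPM in 2C::GFP+ (log2 fold change -1.31, SE 0.27, adjusted p = 0.00416) and Id4 fell by 2.92 (SE 0.35, adjusted p = 4.31e-05). Of 26 Notch genes 5 rose and 4 fell (median 0.02). The ligands moved in opposite directions: Dll1 had 0.787 and 0.257 CPM in mESC and 13.3 and 15.5 CPM in 2C::GFP+ (log2 fold change 4.45, SE 0.28, adjusted p = 4.38e-07), and Jag1 had 74.2 and 63.5 CPM in mESC and 20.4 and 15.6 CPM in 2C::GFP+ (log2 fold change -1.92, SE 0.18, adjusted p = 4.89e-06). Rbpj, the DNA-binding factor of the pathway, rose by 1.46 (SE 0.13, adjusted p = 3.12e-06) and Dtx1, which encodes a ubiquitin ligase that acts on Notch, fell by 1.51 (SE 0.20, adjusted p = 9.62e-05). The number of BMP genes called higher was 2 once mESC replicate 1 was left out and 3 once 2C::GFP+ replicate 2 was left out. The count of BMP genes called lower was 2 once 2C::GFP+ replicate 1 or else mESC replicate 2 was left out and 3 once mESC replicate 1 was left out. The number of Notch genes called higher was 3 once 2C::GFP+ replicate 1 or else mESC replicate 1 was left out. The count of Notch genes called lower was 2 once mESC replicate 1 was left out.

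Retinoic acid acts through nuclear receptors, and of 27 genes of its supply and response 8 rose and 2 fell (median 0.43). Beside Stra8, the receptor gene Rarg had 71.4 and 40.4 CPM in mESC and 359.7 and 347 CPM in 2C::GFP+ (log2 fold change 2.65, SE 0.24, adjusted p = 6.54e-05). The receptor gene Rxrg rose by 4.22 (SE 0.61, adjusted p = 0.000203). Aldh1a3, an enzyme that makes retinoic acid, had 2.67 and 5.13 CPM in mESC and 0.2003 and 0.475 CPM in 2C::GFP+ (log2 fold change -3.75, SE 0.60, adjusted p = 0.000494). The number of retinoic acid genes called higher was 5 once mESC replicate 1 was left out.

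In the JAK-STAT3 list, the arm through which LIF maintains naive cells, 10 of 29 genes fell and 4 rose (median -0.26). The naive factor Tfcp2l1 had 1217 and 1365 CPM in mESC and 296 and 371 CPM in 2C::GFP+ (log2 fold change -1.95, SE 0.15, adjusted p = 1.05e-06). Klf4 had 338 and 453 CPM in mESC and 178 and 185 CPM in 2C::GFP+ (log2 fold change -1.12, SE 0.14, adjusted p = 6.95e-05), and Stat3 itself had 184 and 179 CPM in mESC and 109.8 and 104 CPM in 2C::GFP+ (log2 fold change -0.76, SE 0.14, adjusted p = 0.00157). The Stat3 call ended under limma on log2(TPM + 0.1) (adjusted p = 0.0564) and log2(TPM + 1) (0.0581, and 0.168 without a filter). The kinase gene Jak1 rose by 0.68 (SE 0.13, adjusted p = 0.00219) and Gbx2, a homeobox target of STAT3, by 1.51 (SE 0.25, adjusted p = 0.000933). Of 17 KLF genes 7 fell and 4 rose (median 0.11), with Klf13 and Klf8 at -0.95 (SE 0.16, adjusted p = 0.000798) and -0.90 (SE 0.17, adjusted p = 0.00135), Klf11 higher by 0.89 (SE 0.16, adjusted p = 0.00127), and Klf2 at -0.31 (SE 0.16, adjusted p = 0.165). The number of JAK-STAT3 genes called higher was 2 once 2C::GFP+ replicate 1 or else mESC replicate 2 was left out. The count of JAK-STAT3 genes called lower was 5 once 2C::GFP+ replicate 2 was left out. The number of KLF genes called higher was 2 once 2C::GFP+ replicate 2 or else mESC replicate 1 was left out.

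Of the genes that place new DNA methylation Dnmt3a and Dnmt3l rose, and Dnmt3b did not pass the test. Dnmt3a, a de novo methyltransferase, had 47.9 and 66.6 CPM in mESC and 332 and 259 CPM in 2C::GFP+ (log2 fold change 2.38, SE 0.19, adjusted p = 4.04e-06), and its cofactor Dnmt3l had 124 and 94.1 CPM in mESC and 418 and 311 CPM in 2C::GFP+ (log2 fold change 1.74, SE 0.17, adjusted p = 9.8e-06). Dnmt3b had 234 and 110.1 CPM in mESC and 303 and 238 CPM in 2C::GFP+ (adjusted p = 0.215) with no overlap between the groups but a wide gap between the mESC libraries. The maintenance genes Dnmt1 and Uhrf1 were at 0.04 (SE 0.13, adjusted p = 0.873) and 0.05 (SE 0.15, adjusted p = 0.839). Of the TET genes, which oxidise methylcytosine, Tet2 rose by 1.00 (SE 0.17, adjusted p = 0.00101) from 102 and 91.6 CPM, Tet3 rose by 1.52 (SE 0.34, adjusted p = 0.00686) and Tet1 was at 0.14 (SE 0.18, adjusted p = 0.648). The Tet3 call ended after thinning to equal depth (adjusted p = 0.0697) and under limma on log2(TPM + 0.1) (0.0795) and log2(TPM + 1) (0.0852, and 0.212 without a filter). Over the whole list 7 of 23 genes rose and 2 fell (median 0.14).

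Among Polycomb genes, which place and read repressive marks on histones H3 and H2A, 9 of 36 rose and 4 fell (median 0.16). Among the rises were accessory subunits: Phf19 had 3.29 and 2.52 CPM in mESC and 18.6 and 19.19 CPM in 2C::GFP+ (log2 fold change 2.67, SE 0.24, adjusted p = 3.75e-06), Jarid2 had 275 and 277 CPM in mESC and 653 and 689.9 CPM in 2C::GFP+ (log2 fold change 1.28, SE 0.13, adjusted p = 1.04e-05), and Kdm2b, which recruits a variant complex to CpG islands, rose by 1.08 (SE 0.13, adjusted p = 5.65e-05). Phc1 rose by 1.24 (SE 0.21, adjusted p = 0.0013) and its paralogue Phc2 fell by 0.66 (SE 0.15, adjusted p = 0.00483). The call of Phc2 was lost under limma on log2(TPM + 0.1) (adjusted p = 0.0726) and log2(TPM + 1) (0.0828, and 0.187 without a filter). Of 29 genes of transposon and heterochromatin silencing 6 rose and 1 fell (median 0.09), led by Resf1 with 132 and 134 CPM in mESC and 245 and 257 CPM in 2C::GFP+ (log2 fold change 0.91, SE 0.12, adjusted p = 7.28e-05). The number of Polycomb genes called higher was 5 once 2C::GFP+ replicate 2 was left out. The count of Polycomb genes called lower was 1 once 2C::GFP+ replicate 2 or else mESC replicate 1 was left out and 2 once 2C::GFP+ replicate 1 or else mESC replicate 2 was left out. The number of silencing genes called higher was 2 once mESC replicate 1 or else mESC replicate 2 was left out and 3 once 2C::GFP+ replicate 1 was left out.

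Of 48 imprinted genes, 11 rose and 4 fell (median 0.16). Grb10, an adaptor that restrains growth signalling, had 34.8 and 31.3 CPM in mESC and 139 and 178 CPM in 2C::GFP+ (log2 fold change 2.26, SE 0.16, adjusted p = 6.02e-07), and Phlda2 had 12.6 and 18.5 CPM in mESC and 69.2 and 62.1 CPM in 2C::GFP+ (log2 fold change 2.10, SE 0.19, adjusted p = 3.32e-06). Plagl1, a zinc finger gene, moved the other way with 91.4 and 129 CPM in mESC and 8.12 and 8.55 CPM in 2C::GFP+ (log2 fold change -3.72, SE 0.19, adjusted p = 2.69e-08), and the long non-coding RNA gene Rian of the Dlk1-Dio3 region fell by 1.19 (SE 0.16, adjusted p = 0.000125). H19 rose by 2.86 (SE 0.38, adjusted p = 0.000113) to 1.25 and 2.32 CPM.

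Iron is taken up with the help of transferrin receptors and reductases, and zinc is bound by metallothioneins and moved by dedicated transporters. Of 26 iron genes, 11 rose and 0 fell (median 0.18). Members of the STEAP family, which includes metalloreductases, were among the rises, and values are given for the more abundant of them. Steap2 had 4.82 and 4.41 CPM in mESC and 57.1 and 70.1 CPM in 2C::GFP+ (log2 fold change 3.77, SE 0.18, adjusted p = 1.4e-08), Steap1 had 1.93 and 2.36 CPM in mESC and 23.5 and 22.2 CPM in 2C::GFP+ (log2 fold change 3.44, SE 0.24, adjusted p = 4.79e-07), and Steap3 had 2.96 and 4.52 CPM in mESC and 71.6 and 40.04 CPM in 2C::GFP+ (log2 fold change 3.97, SE 0.42, adjusted p = 0.000431). The transferrin receptor gene Tfr2 rose by 4.06 (SE 0.46, adjusted p = 2.39e-05). Of 27 zinc genes 8 fell and 1 rose (median -0.26). The metallothionein Mt1, which binds zinc, had 543 and 377 CPM in mESC and 88.4 and 79.5 CPM in 2C::GFP+ (log2 fold change -2.45, SE 0.16, adjusted p = 3.45e-07), and Mt2 had 24.5 and 24.02 CPM in mESC and 5.19 and 3.56 CPM in 2C::GFP+ (log2 fold change -2.44, SE 0.30, adjusted p = 5.04e-05). The zinc exporter Slc30a2 had 96.6 and 119 CPM in mESC and 10.7 and 7.84 CPM in 2C::GFP+ (log2 fold change -3.52, SE 0.20, adjusted p = 4.75e-08). The number of iron genes called higher was 6 once mESC replicate 1 was left out.

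Antioxidant genes and selenoproteins held rises and falls side by side. Of 36 antioxidant genes 9 fell and 3 rose (median -0.08), and of 22 selenoprotein genes 5 fell and 3 rose (median -0.02). The glutathione genes Gss and Gsr fell, at -1.07 (SE 0.14, adjusted p = 0.000114) and -0.82 (SE 0.13, adjusted p = 0.00039). Gpx4, the peroxidase that repairs lipid peroxides, had 153 and 150.04 CPM in mESC and 473 and 539 CPM in 2C::GFP+ (log2 fold change 1.74, SE 0.15, adjusted p = 2.48e-06). Gpx2, another glutathione peroxidase, had 84.7 and 75.5 CPM in mESC and 23.3 and 18.2 CPM in 2C::GFP+ (log2 fold change -1.94, SE 0.24, adjusted p = 0.000118). The number of antioxidant genes called higher was 1 once 2C::GFP+ replicate 1 or else 2C::GFP+/SGC replicate 1 or else mESC replicate 2 was left out and 5 once 2C::GFP+/SA replicate 1 or else 2C::GFP+/SA replicate 2 was left out. The count of antioxidant genes called lower was 5 once 2C::GFP+ replicate 2 was left out. The number of selenoprotein genes called higher was 5 once 2C::GFP+/SA replicate 1 or else 2C::GFP+/SA replicate 2 was left out. The count of selenoprotein genes called lower was 3 once 2C::GFP+ replicate 1 or else 2C::GFP+ replicate 2 or else mESC replicate 2 was left out.

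Fatty acid synthesis fell in 12 of 32 genes and rose in 5 (median -0.14). Besides Scd1 and Scd2, its regulator Srebf1 had 281 and 224 CPM in mESC and 96.5 and 84.6 CPM in 2C::GFP+ (log2 fold change -1.48, SE 0.15, adjusted p = 9.97e-06), and the desaturase gene Fads2 had 163 and 153 CPM in mESC and 69.6 and 53.6 CPM in 2C::GFP+ (log2 fold change -1.36, SE 0.15, adjusted p = 2.21e-05). Scd3, another desaturase of the family, rose by 2.23 (SE 0.27, adjusted p = 0.000263) and Mlxipl, a glucose-sensing regulator of lipid synthesis, by 1.98 (SE 0.31, adjusted p = 0.000447). Of 34 genes of serine, glycine and one-carbon metabolism 12 fell and 1 rose (median -0.15). Aldh1l1, a folate enzyme, had 53.8 and 73.9 CPM in mESC and 10.9 and 7.19 CPM in 2C::GFP+ (log2 fold change -2.79, SE 0.25, adjusted p = 3.54e-06), Tdh, threonine dehydrogenase, had 738 and 665 CPM in mESC and 397 and 288 CPM in 2C::GFP+ (log2 fold change -1.03, SE 0.15, adjusted p = 0.000246), and Psat1 of serine synthesis fell by 0.82 (SE 0.14, adjusted p = 0.000868). The gene that rose was the folate receptor Folr1, with 7.45 and 5.39 CPM in mESC and 88.02 and 62.9 CPM in 2C::GFP+ (log2 fold change 3.53, SE 0.22, adjusted p = 2.02e-07). The number of fatty acid synthesis genes called higher was 3 once 2C::GFP+ replicate 2 or else mESC replicate 1 was left out. The count of one-carbon genes called lower was 6 once 2C::GFP+ replicate 2 was left out and 7 once mESC replicate 1 was left out. Without 2C::GFP+/SA replicate 1, 4 one-carbon genes were higher in place of 1.

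Lysosome and autophagy genes fell in 14 of 47 cases and rose in 1 (median -0.16). The protease gene Ctsb had 249.7 and 263 CPM in mESC and 112 and 103 CPM in 2C::GFP+ (log2 fold change -1.26, SE 0.12, adjusted p = 6.64e-06), the membrane protein gene Lamp2 had 103 and 119 CPM in mESC and 38.7 and 43.3 CPM in 2C::GFP+ (log2 fold change -1.44, SE 0.15, adjusted p = 1.02e-05), and Npc2, which carries cholesterol out of the lysosome, had 315 and 305 CPM in mESC and 145 and 162 CPM in 2C::GFP+ (log2 fold change -1.02, SE 0.14, adjusted p = 0.000109). The autophagy kinase gene Ulk1 fell by 0.89 (SE 0.13, adjusted p = 0.000293). In these 4 genes the groups did not overlap, as in 4968 of the 5016 called genes. Over all tested genes, 29% had both 2C::GFP+ libraries below both of mESC. The number of lysosome genes called lower was 7 once 2C::GFP+ replicate 1 was left out and 9 once mESC replicate 1 was left out.

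Among surface genes of adhesion, 8 of 21 integrins, receptors for extracellular matrix, rose and 1 fell (median 0.48). Itga5, the fibronectin receptor subunit, had 23.5 and 20.2 CPM in mESC and 178 and 215 CPM in 2C::GFP+ (log2 fold change 3.16, SE 0.16, adjusted p = 2.41e-08), while the fibronectin gene Fn1 had 2474 and 2939 CPM in mESC and 1414 and 1624 CPM in 2C::GFP+ (log2 fold change -0.83, SE 0.14, adjusted p = 0.000803). Itga9 and Itgb5 rose by 1.74 (SE 0.29, adjusted p = 0.000668) and 0.87 (SE 0.16, adjusted p = 0.00121). Of 48 junction genes 12 rose and 11 fell (median 0.28). Epcam, an epithelial adhesion molecule, had 37.4 and 61.7 CPM in mESC and 167 and 185 CPM in 2C::GFP+ (log2 fold change 1.84, SE 0.22, adjusted p = 0.000161). The number of integrin genes called higher was 5 once 2C::GFP+ replicate 1 was left out. The count of junction genes called higher was 7 once mESC replicate 1 was left out.

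Of 43 collagen, laminin and basement membrane genes 8 rose and 9 fell (median -0.02). The laminin chains diverged: Lama3 had 1.297 and 1.797 CPM in mESC and 34.6 and 49.5 CPM in 2C::GFP+ (log2 fold change 4.83, SE 0.27, adjusted p = 4.75e-08), and Lamb2 had 111 and 113 CPM in mESC and 42.4 and 38.3 CPM in 2C::GFP+ (log2 fold change -1.47, SE 0.17, adjusted p = 3.58e-05). Col9a2 rose by 5.47 (SE 0.26, adjusted p = 1.4e-08). Of 22 Eph receptors and ephrins 6 fell and 4 rose (median -0.06), with Epha4 at 176 and 201 CPM in mESC and 103 and 94.3 CPM in 2C::GFP+ (log2 fold change -0.93, SE 0.14, adjusted p = 0.000301) and the ligand Efnb2 at 3.77 and 2.77 CPM in mESC and 19.96 and 19.13 CPM in 2C::GFP+ (log2 fold change 2.54, SE 0.20, adjusted p = 1.12e-06). Of 37 myosin genes 9 rose and 6 fell (median 0.35), among them Myo1g higher by 2.83 (SE 0.25, adjusted p = 3.61e-06) and Myo19, a motor of mitochondria, at -1.18 (SE 0.16, adjusted p = 0.000104). The number of matrix genes called higher was 5 once mESC replicate 1 was left out. The count of Eph and ephrin genes called higher was 2 once 2C::GFP+ replicate 2 or else mESC replicate 1 or else mESC replicate 2 was left out.

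**Figure D4:**
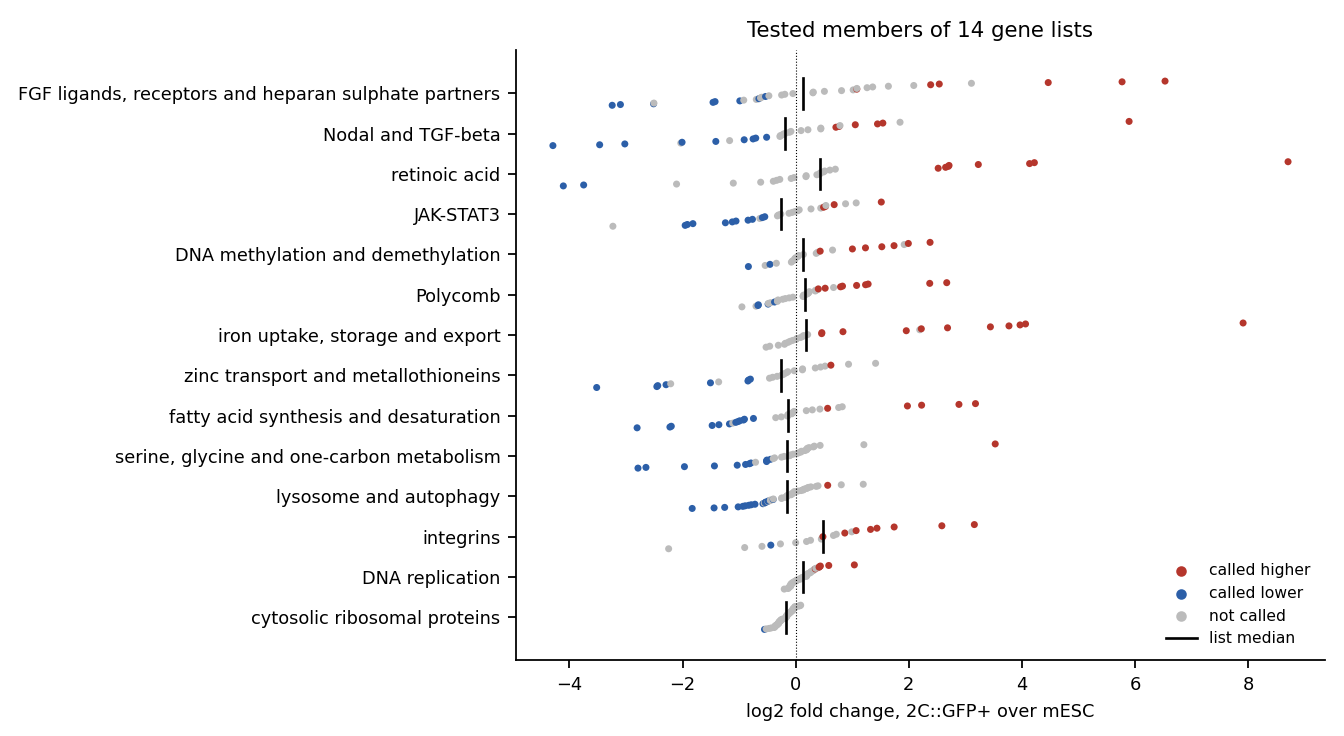
Log2 fold change (2C::GFP+ over mESC) of each tested member of 14 lists described in the text, coloured by call, with the list median as a black line. Iron genes hold 11 members called higher and none lower, zinc, lysosome and one-carbon genes 8, 14 and 12 called lower against 1 called higher in each, and ribosomal protein genes lie close to the list median of -0.17.

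Genes of early lineages moved in both directions. Of 26 trophoblast genes 8 fell and 5 rose (median -0.23). Cdx2 had 4.47 and 8.21 CPM in mESC and 0.3004 and 0.356 CPM in 2C::GFP+ (log2 fold change -4.30, SE 0.55, adjusted p = 7.64e-05), the keratin gene Krt8 had 31.9 and 40.7 CPM in mESC and 6.23 and 4.57 CPM in 2C::GFP+ (log2 fold change -2.72, SE 0.26, adjusted p = 6.14e-06), and Tead4, the factor upstream of Cdx2, had 84.9 and 81.2 CPM in mESC and 31.4 and 26.2 CPM in 2C::GFP+ (log2 fold change -1.52, SE 0.19, adjusted p = 6.95e-05). Among the trophoblast genes that rose, Plet1 had 1.82 and 1.59 CPM in mESC and 10.8 and 5.82 CPM in 2C::GFP+ (log2 fold change 2.29, SE 0.43, adjusted p = 0.00164), and Gcm1, a factor of syncytiotrophoblast, had 0 and 0 CPM in mESC and 0.217 and 0.238 CPM in 2C::GFP+ (adjusted p = 0.00514). The Gcm1 call ended without mESC replicate 1 (adjusted p = 0.131). Of 25 mesendoderm genes 6 fell and 2 rose (median -0.17), with Cdx1 at -3.07 (SE 0.34, adjusted p = 2.03e-05) and Eomes at -1.47 (SE 0.25, adjusted p = 0.000648). The 2 that rose were Mesp2 with 2.08 (SE 0.43, adjusted p = 0.00309) and the ligand gene Fgf17 with 1.08 (SE 0.25, adjusted p = 0.00576), and these calls ended without 2C::GFP+ replicate 1 for Mesp2 (adjusted p = 0.0621) and without mESC replicate 2 for Fgf17 (0.0567). Of 25 neuroectoderm genes 8 fell and 6 rose (median -0.20), among them the homeobox genes Nkx6-2 with 47.3 and 82.8 CPM in mESC and 5.13 and 3.98 CPM in 2C::GFP+ (log2 fold change -3.80, SE 0.34, adjusted p = 1.42e-05) and Pax6 with 0.459 and 0.103 CPM in mESC and 7.36 and 4.57 CPM in 2C::GFP+ (log2 fold change 4.08, SE 0.46, adjusted p = 2.69e-05). The number of trophoblast genes called higher was 2 once mESC replicate 1 was left out and 3 once 2C::GFP+ replicate 1 or else 2C::GFP+ replicate 2 was left out. The count of neuroectoderm genes called lower was 4 once 2C::GFP+ replicate 1 or else 2C::GFP+ replicate 2 or else mESC replicate 1 was left out.

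Hox genes, which pattern the body axis, rose in 10 of 31 cases and fell in 6 (median 2.48). Hoxd13 had 0.743 and 1.13 CPM in mESC and 4.25 and 3.86 CPM in 2C::GFP+ (log2 fold change 2.22, SE 0.29, adjusted p = 9.18e-05), and Hoxc4 had 5.91 and 9.09 CPM in mESC and 0.643 and 0.475 CPM in 2C::GFP+ (log2 fold change -3.67, SE 0.47, adjusted p = 7.64e-05). Of 18 SOX genes 7 rose and 2 fell (median 0.84), with Sox1 and Sox4 higher by 1.76 (SE 0.33, adjusted p = 0.00149) and 1.39 (SE 0.27, adjusted p = 0.00181), and Sox2, the pluripotency factor, at -0.13 (SE 0.13, adjusted p = 0.508). The number of Hox genes called higher was 3 once mESC replicate 1 was left out. The count of Hox genes called lower was 3 once 2C::GFP+ replicate 1 or else mESC replicate 2 was left out. The number of SOX genes called higher was 3 once mESC replicate 1 was left out.

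Markers of cell types that a culture could also hold were summed. The 19 tested fibroblast and feeder genes added up to 3369 and 3543 CPM in mESC and 2204 and 2197 CPM in 2C::GFP+ and Fn1 and Vim, which embryonic stem cells also express, were the most abundant. Of these, 5 rose and 2 fell, and Postn, Twist2, S100a4 and Fap had no count in the 4 libraries. The 19 haematopoietic and macrophage genes added up to 247 and 211 CPM in mESC and 261 and 222 CPM in 2C::GFP+, with 5 higher and 1 lower. Laptm5 was the most abundant of them and did not pass the test, and the defining genes Lyz2, Tyrobp, Aif1 and Adgre1 had no count in the 4 libraries. Cd68, a lysosomal membrane protein gene of macrophages, had 15.4 and 11.2 CPM in mESC and 35.6 and 33.03 CPM in 2C::GFP+ (log2 fold change 1.36, SE 0.23, adjusted p = 0.000687). The fibroblast marker Thy1 had 3.104 and 3.44 CPM in mESC and 7.702 and 6.71 CPM in 2C::GFP+ (log2 fold change 1.16, SE 0.25, adjusted p = 0.00389). The part of such cells in the other results was not tested. The number of fibroblast genes called higher was 2 once mESC replicate 1 was left out and 3 once 2C::GFP+ replicate 1 or else 2C::GFP+ replicate 2 was left out. The count of haematopoietic genes called higher was 3 once 2C::GFP+ replicate 1 or else mESC replicate 2 was left out.

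Among housekeeping lists, of 52 cytosolic ribosomal protein genes 0 rose and 1 fell, and 49 had a log2 fold change below 0 (median -0.17). The number that fell was 10 without 2C::GFP+/SA replicate 1 and 16 without 2C::GFP+/SA replicate 2. Of 43 ribosome biogenesis genes 1 rose, and 4 did without 2C::GFP+/SA replicate 1. Of 43 DNA replication genes 6 rose and 0 fell (median 0.14), led by Rpa1, a subunit of the single-strand binding protein, with 268 and 274 CPM in mESC and 553 and 561 CPM in 2C::GFP+ (log2 fold change 1.04, SE 0.13, adjusted p = 5.04e-05). Of 41 genes of cyclins, cyclin-dependent kinases and their inhibitors 10 rose and 10 fell (median -0.06). Cyclin D2 (Ccnd2) had 6.86 and 6.06 CPM in mESC and 37.8 and 26.3 CPM in 2C::GFP+ (log2 fold change 2.31, SE 0.25, adjusted p = 1.9e-05), and the inhibitor gene Cdkn1a, a target of p53, had 223 and 297 CPM in mESC and 53.3 and 48.3 CPM in 2C::GFP+ (log2 fold change -2.35, SE 0.17, adjusted p = 7.02e-07). Cyclin E1 (Ccne1) rose by 1.24 (SE 0.15, adjusted p = 4.3e-05) and the inhibitor Cdkn2a fell by 1.24 (SE 0.26, adjusted p = 0.00391). The Y-linked genes Eif2s3y and Uty were at -0.09 (SE 0.16, adjusted p = 0.722) and 0.20 (SE 0.15, adjusted p = 0.381), and were present in all 4 libraries at 34.1 CPM or more. Of 13 tested genes of chromosome Y 5 were called higher and 0 lower. They were Ddx3y, with 66.4 and 64.9 CPM in mESC and 99.1 and 84.8 CPM in 2C::GFP+ (log2 fold change 0.49, SE 0.14, adjusted p = 0.0196), Kdm5d at 2.27 (SE 0.38, adjusted p = 0.000677), Zfy1 at 1.63 (SE 0.35, adjusted p = 0.00401), Usp9y at 3.33 (SE 0.58, adjusted p = 0.00349) and Zfy2, named after its values were seen (adjusted p = 0.0319). The Ddx3y call ended when 2C::GFP+ replicate 1 (adjusted p = 0.136), mESC replicate 1 (0.0847) or mESC replicate 2 (0.109) was left out. That of Usp9y ended for 2C::GFP+ replicate 2 (0.0714), mESC replicate 1 (0.0921) and mESC replicate 2 (0.0665), and that of Zfy2 for 2C::GFP+ replicate 2 (0.129), mESC replicate 1 (0.307) and after thinning (0.126). The number of DNA replication genes called higher was 1 once 2C::GFP+ replicate 1 was left out, 2 once 2C::GFP+ replicate 2 or else mESC replicate 2 was left out and 3 once mESC replicate 1 was left out. The count of cyclin and kinase genes called lower was 4 once 2C::GFP+ replicate 1 or else 2C::GFP+ replicate 2 or else mESC replicate 1 was left out and 5 once mESC replicate 2 was left out. The number of Y-linked genes called higher was 2 once mESC replicate 1 was left out and 3 once 2C::GFP+ replicate 2 or else mESC replicate 2 was left out.

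Calls lay on every chromosome. Over genes with a mean of at least 1 CPM, the medians of the log2 fold change of chromosomes 1 to 19 and X lay between -0.16 (chromosome 8) and 0.05. The few such genes of chromosome Y (8) and of the mitochondrial genome (10) had medians of 0.44 and 0.36. On chromosome 8, 7 runs of 100 neighbouring genes had medians from -0.32 to -0.02, and 69 of 125 such runs over the genome were below 0. Relative to each library's own median, the genes of chromosome 8 had mESC medians of 0.07 and 0.05 (log2) and 2C::GFP+ medians of -0.06 and -0.07. The 2C::GFP+/SGC medians were -0.05 and -0.04, and the 2C::GFP+/SA medians 0.06 and 0.005. The groups compared did not overlap there, but this also held for other chromosomes. Chromosome 6 had medians of 0.035 and 0.107 in mESC and -0.013 and -0.009 in 2C::GFP+. Chromosome 14 differed the other way, with -0.08 and -0.036 in mESC and 0.012 and 0.023 in 2C::GFP+. On chromosome 8 the 2C::GFP+/SA libraries lay above those of 2C::GFP+.

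The run with the highest median (0.56, against 0.19 for the next highest) lay at chr4:141239499-149120647 (GRCm38), from Arhgef19 to Dffa, with 35 genes higher and 4 lower. It holds a cluster of Prame-like genes and one of zinc finger genes, whose members were picked out after their values were seen. Of 6 genes with a Prame symbol 4 rose and 0 fell, and predicted models that lie among them were counted apart. Pramef6 had 0.0583 and 0 CPM in mESC and 5.05 and 6.71 CPM in 2C::GFP+ (log2 fold change 6.79, SE 0.52, adjusted p = 9.87e-06). Of 18 genes with a Zfp symbol 4 rose and 0 fell (median 0.56), led by Zfp981 with 56.2 and 36.2 CPM in mESC and 199 and 168 CPM in 2C::GFP+ (log2 fold change 1.98, SE 0.19, adjusted p = 1.57e-05). The 46 named genes of neither kind had 12 rises and 4 falls (median 0.28), and 30 predicted models had 15 rises and 0 falls (median 0.94). Over the 100 genes of the run, 23 rose with mESC replicate 2 left out, and 1 fell when mESC replicate 1 or 2C::GFP+ replicate 1 was dropped, 2 fell without mESC replicate 2 and 7 without 2C::GFP+/SA replicate 2. The Zfp genes that rose numbered 2 when mESC replicate 2 or 2C::GFP+ replicate 1 was dropped and 7 when either 2C::GFP+/SA library was. Of the 46 other named genes, 7 rose when either mESC library was dropped. Of the same 46 genes, 0 fell without 2C::GFP+ replicate 1, 1 without mESC replicate 1 and 2 without mESC replicate 2, and 1 Prame-like gene was called lower once 2C::GFP+ replicate 1 was dropped. Over the run, genes stood at -0.20 and -0.42 relative to the library median in mESC and at 0.14 and 0.12 in 2C::GFP+. Genes of both clusters are related copies whose sequence identity was not measured, so the share of reads given to each is uncertain.

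**Figure D5:**
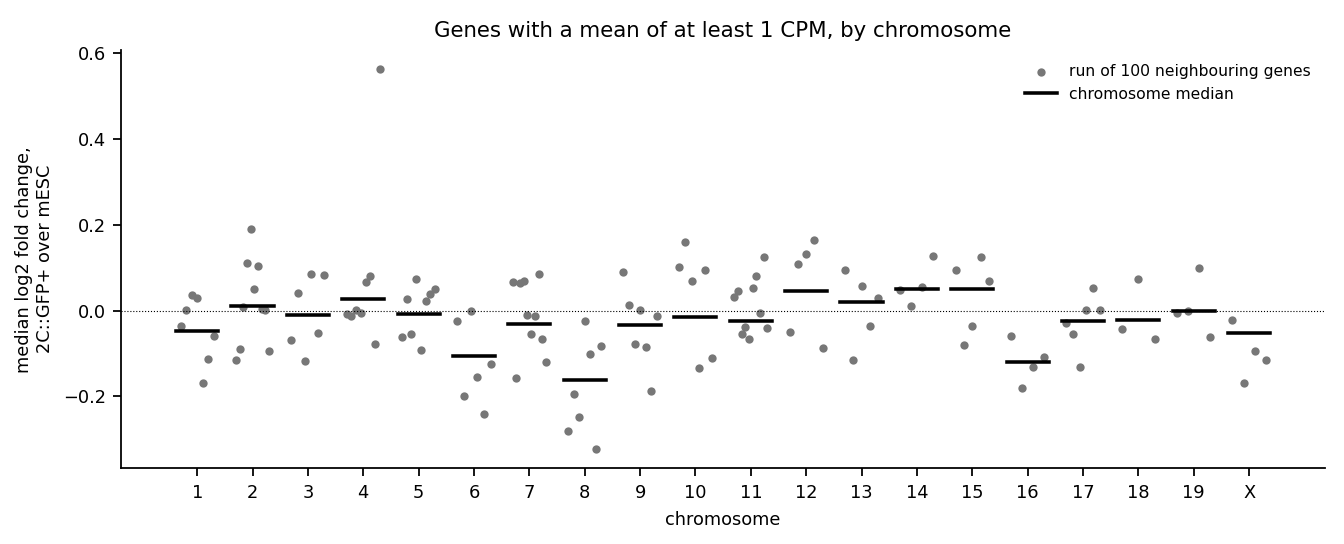
Median log2 fold change (2C::GFP+ over mESC) of each run of 100 neighbouring genes (points, in genomic order within a chromosome) and of each chromosome (horizontal lines), for genes with a mean of at least 1 CPM. The last run of chromosome 4 stands at 0.56, and the chromosome 8 median is the lowest at -0.16.

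By gene type, 2551 of 15718 tested protein-coding genes rose and 1732 fell, and of 2238 long non-coding RNA genes 285 rose and 93 fell. Of 1831 pseudogenes, whose reads cannot be separated with certainty from those of their parent genes, 21 fell and 13.98% rose. These counts changed when 1 library was left out, with fewer samples in the fit. With mESC replicate 1 left out, 1526 protein-coding genes rose and 1075 fell, 101 long non-coding RNA genes rose and 27 fell, and 115 pseudogenes rose and 4 fell. With 2C::GFP+ replicate 1 left out, 1070 protein-coding genes fell, 141 long non-coding RNA genes rose and 37 fell, and 7 pseudogenes fell. The same counts were 1038, 185, 45 and 13 when it was 2C::GFP+ replicate 2. Dropping mESC replicate 2 left 171 long non-coding RNA genes that rose, and dropping 2C::GFP+/SA replicate 2 gave 34 pseudogenes that fell. Among families of at least 10 tested genes by symbol, Obox genes, homeobox genes of oocyte and early embryo, rose in 14 of 24 cases with 0 falls, and in 8 once mESC replicate 1 was dropped. Nlrp genes, known from oocytes and inflammasomes, rose in 5 of 12 cases with 0 falls. The median level in the higher group was 0.253 CPM for Obox genes and 2.34 CPM for Nlrp genes. That of Obox is close to the level of 3 counts in 2C::GFP+ replicate 2 (0.178 CPM). Snhg genes, hosts of small nucleolar RNAs, fell in 6 of 14 cases with 0 rises, but in 2 with mESC replicate 1 dropped and in 3 with 2C::GFP+ replicate 2 dropped. These families were picked after their values were seen.

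Counts were absent from both libraries of one group for few genes that reached 1 CPM in both of the other: 33 genes without a count in mESC and 1 without a count in 2C::GFP+. The highest of them was Apol7b, an apolipoprotein L gene, with 7.10 and 6.83 CPM in 2C::GFP+, at least 364-fold higher than the level of 3 counts over the 2 mESC libraries (adjusted p = 0.00746). Its call ended when any of 4 libraries was left out, with adjusted p of 0.128 for 2C::GFP+ replicate 2, 0.0857 for 2C::GFP+/SGC replicate 2, 0.053 for mESC replicate 1 and 0.0592 for mESC replicate 2. Piwil4, a PIWI gene of the piRNA pathway, had 2.48 and 7.66 CPM, at least 265-fold higher (adjusted p = 0.00177). Ankrd22 had 3.05 and 4.10 CPM, at least 187-fold higher (adjusted p = 4.26e-05). The number without a count depends on depth, and after thinning to equal depth it was 89 and 4.

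For a few of the named genes, levels in the treated reporter cells are given beside those of the untreated groups, as values with no test. The labels place the treated cells in KnockOut medium, but these cells also carry the reporter and received SGC0946. Medium, genotype and treatment therefore cannot be told apart in them. Sp5 had 0.523 and 0.816 CPM in 2C::GFP+/SGC and 1.49 and 1.85 CPM in 2C::GFP+/SA, below both mESC libraries. Trh had 79.7 and 138 CPM and 108 and 153 CPM. Dusp9 had 213 and 244 CPM and 123 and 137 CPM. Scd1 had 56.2 and 42.8 CPM and 18.6 and 16.1 CPM. Dcc, with 11.3 and 8.67 CPM in untreated 2C::GFP+, had 26.7 and 20.1 CPM and 244 and 105 CPM.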

How the data were processed

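Per the submitters' processing notes, the tools were featureCounts 2.0.0, STAR 2.7.4a, FastQC 0.11.9 and Trim Galore 0.6.5, and the build mm10/GRCm38. The authors deposited a table of gene-level read counts (unit: counts) and a matching table of TPM values made by the authors, for 55573 genes in 8 libraries. All 8 columns were used (0 left out). Whether counting used strand is not given in the sources used here, so overlapping and antisense genes cannot be separated with certainty. Symbols and types came from GENCODE M21 (93 identifiers had no entry).

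Counts were tested with edgeR 4.0.16 (filterByExpr, TMM, robust quasi-likelihood F test) in R 4.3.3, over all 8 libraries with 1 term per group, and p-values were adjusted over the 20608 tested genes. The fit had 4 residual degrees of freedom and a common biological coefficient of variation of 20.6%. SE was not estimated directly but recovered from the F test, as the size of the log2 fold change over the root of F. It is a weak guide to precision for genes with few or no counts in a group, where the fold depends on the prior count. CPM are TMM-scaled. Promoters came from the RefSeq table, and those of 4 of the 8 genes planned are printed.

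Named genes were the 12 largest rises and falls among called genes whose groups did not overlap and that reached 10 CPM. The 8 largest each way at 200 CPM or more were also named. From both, genes on the 2-cell-like list and predicted models were left out. In each list up to 4 members in the commoner direction and 2 in the other were named by smallest adjusted p. A set of pluripotency, methylation and Y-linked genes was added. Some genes that these rules chose are not reported here. The groups, the 58 lists (10 of 1807 symbols unmatched) and these rules were chosen with earlier results of these data known. Alternatives were DESeq2 1.42.0, RLE and upper-quartile scaling, other filters, limma 3.58.1 on log2(TPM + 1) and log2(TPM + 0.1), the 4 libraries alone, thinning to equal depth, a replicate block and leaving out each library.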

Additional observations from a re-analysis of the deposited data

How the results depend on the processing

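The number of genes called was 5016 (3136 higher, 1880 lower, 3337 by at least 2-fold). With limma on log2(TPM + 1) it was 2924 (1788 higher, 1136 lower, 2110 by at least 2-fold), and without a filter 1620 (1049, 571 and 1418). With log2(TPM + 0.1) it was 3351, of which 1092 were lower. DESeq2 called 5328, RLE scaling 5174, upper-quartile scaling 5216, the stricter filter 4866, no filter 5387, the 4 libraries alone 5508 and thinned libraries 4206. The excess of rises over falls varied with the setting. With the 4 libraries alone 3045 genes were higher and 2463 lower. In edgeR without a filter on low counts they were 3215 and 2172, and with upper-quartile scaling 3477 and 1739. Leaving out 1 library gave 2872 to 5869 genes (1753 to 3431 higher, 1110 to 2438 lower, 2088 to 3608 by at least 2-fold), with fewer samples in the fit. Of 147 called genes named in the text, 140 to 147 kept call and direction with 1 library left out and 124 under limma on log2(TPM + 1) without a filter. Over all alternatives with a value, 118 kept the call, and 0 reversed under any alternative run. The calls lost under limma on log2(TPM + 1) without a filter were those of Ddx3y, Fgf17, Fgfr3, Fn1, Gcm1, Id3, Itgb5, Jak1, Kdm5d, Klf11, Klf13, Mesp2, Phc2, Piwil4, Rxrg, Sox4, Stat3, Tdgf1, Tet2, Tet3, Ulk1, Usp9y and Zfy2. With the filter those of Ddx3y, Fgfr3, Gcm1, Kdm5d, Phc2, Stat3, Tet3, Usp9y and Zfy2 were lost, and with log2(TPM + 0.1) those of Phc2, Stat3, Tet3 and Zfy2. The cause of these differences was not tested. Of 1102 list medians under alternatives, 165 moved by more than the spread between replicates and 53 changed sign. The count of genes seen in 1 group was 34, and 1 at a minimum of 5 CPM and 93 after thinning. The chromosome 8 median was -0.16, and -0.18 over genes of at least 10 CPM. Replicate numbers were not shown to pair the libraries: deviations of same-numbered libraries correlated at 0.085 between mESC and 2C::GFP+ and at 0.032 to 0.306 between other groups, across 14087 genes that are not independent. With the replicate block 6070 genes were called (3684 higher, 2386 lower). The shallower replicate limits low genes: 3 counts are 0.154 and 0.178 CPM in mESC and 2C::GFP+ replicate 2.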
